A study of Homo sapiens with 6 samples.

Results

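The genes described here are 42 genes of the integrated stress response and of amino acid supply, out of 22077 gene symbols in the count table. They comprise 16 regulators and targets of the response, 9 synthesis genes (7 of serine, asparagine and one-carbon synthesis, with PYCR1 of proline synthesis and PCK2, which makes phosphoenolpyruvate), 6 amino acid transporters and 11 aminoacyl-tRNA synthetases. The genes were chosen on their known roles with the differences between these same 6 libraries, TKT over control, already seen, so the fold changes and tests given for them are a description and support nothing about the set. Of the 42 genes, 41 passed the filter on low counts and were among the 14162 genes tested. The gene that did not pass was SESN2, a stress-induced inhibitor of mTORC1 signaling, which had 0, 0 and 2 counts in the TKT libraries and 0 counts in each control library, at or under a floor of 3 counts, so no fold is given for it.

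In the integrated stress response, kinases that sense unfolded protein, amino acid shortage, double-stranded RNA or heme shortage phosphorylate the alpha subunit of the translation initiation factor eIF2. General protein synthesis then slows, while translation of the transcription factor ATF4 increases, and ATF4 acts with C/EBP proteins on genes of amino acid synthesis, amino acid uptake and tRNA charging. PPP1R15A, also called GADD34, is an inducible subunit that brings protein phosphatase 1 to eIF2 and removes the phosphate, and PPP1R15B is its constitutively expressed counterpart.

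Huh7 is a human hepatocellular carcinoma line. Total RNA was sequenced from 3 libraries of cells overexpressing transketolase (TKT), an enzyme of the pentose phosphate pathway, and 3 libraries of vector control cells, which the labels give the genotype wt. The cells are called Huh7 in the Results of the study and Hu7 in the labels, whereas the Methods give HCCLM3, another line of this cancer, so they were taken as Huh7 here. According to the Methods, the cells were transfected with a TKT expression plasmid (pTSB02-GFP-PURO) and then selected, and the sources do not say whether the selected cells came from 1 clone. The comparison asks which transcripts differ when TKT is raised. The labels call the libraries replicate biosamples and do not say that they came from separate cultures, so p-values measure only the spread between these libraries, which may be technical.

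The TKT libraries held 37096156, 31188058 and 32406994 counts and the control libraries 31618541, 30148788 and 33815829. FPKM are fragments scaled to the length of the gene and the depth of the library. The lengths behind the deposited FPKM are not given in the sources used here, so orders between genes depend on them. For example, GARS1 and NARS1 have 4152 and 4089 annotated exonic bases. They had 7846 and 8568 counts in the first control library, where their deposited FPKM were 14.2 and 66.0. TKT itself was at 985, 991 and 999.5 FPKM in the libraries labelled as overexpressing and at 51.8, 49.6 and 53.6 FPKM in the controls. Every library carried the TKT level that its label calls for. The log2 fold change of TKT was 4.26 with a standard error (SE) of 0.04 and an adjusted p of 1.15e-25 (quasi-likelihood test of edgeR, Benjamini-Hochberg adjusted), and an exact two-sided permutation test over the libraries gave p = 0.1, the smallest value that 3 against 3 allows. The labelled cell type was checked with marker genes. Of 10 hepatocyte markers, 9 were at 1 FPKM or more, AFP was the most abundant, and their summed level was 5972, 6023 and 6103 FPKM in the TKT libraries and 5764, 5839 and 5888 FPKM in the controls. AFP and ALB made up most of this sum. The list did not move one way, since 5 of the 9 tested markers had a log2 fold change above 0 and 4 below, with a median of 0.01. FGB rose by 0.50 (SE 0.03, adjusted p = 8.85e-10, edgeR's quasi-likelihood test), while HNF4A fell by 0.15 (SE 0.04, adjusted p = 0.00720, same test, and 0.0555 without the first TKT library). APOB, also a hepatocyte marker, had at most 6 counts in a library. Of 5 fibroblast or stellate cell markers 0 reached 1 FPKM, and PDGFRB was the most abundant, with sums of 0.233, 0.415 and 0.301 FPKM with TKT and 0.354, 0.269 and 0.272 FPKM in the controls. Of 4 immune markers LYZ alone reached 1 FPKM, with sums of 68.6, 66.0 and 71.4 FPKM with TKT and 83.0, 89.1 and 89.8 FPKM in the controls, while CD68, CD3E and CSF1R had at most 3 counts in a library. Of 2 endothelial markers PECAM1 alone did, with sums of 2.49, 1.95 and 2.12 FPKM with TKT and 2.45, 2.22 and 2.62 FPKM in the controls. COL3A1, DCN, PTPRC, CDH5 and KDR, also on these lists, are not among the gene symbols of the count table, so they are left out of these counts. The summed hepatocyte level was thus slightly higher and LYZ lower in each TKT library, and their part in the results was not tested. In bulk samples such as these, fewer cells of a type and less RNA per cell cannot be told apart.

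At an adjusted p under 0.05 in edgeR's quasi-likelihood test with Benjamini-Hochberg adjustment over all 14162 genes, 6 of the 41 tested genes rose with TKT (5.69% of all tested genes did) and 10 fell (4.94%). With a minimum absolute log2 fold change of 1 in addition, PPP1R15A was the 1 gene left (0.727% of all tested genes passed this rule). The scaled counts of the TKT libraries and those of the control libraries did not overlap in 23 of the 41 genes (28.0% of all tested genes), namely in 15 called and in 8 uncalled genes. Since the choice of genes had this contrast in view, nothing is read from these shares. The median log2 fold change of the 41 genes was −0.08, beside 0.00 over all tested genes, with 16 genes above 0 and 25 below. Most called differences were small, with an absolute log2 fold change under 0.5 in 13 of the 16 called genes and between 0.5 and 1 in 2. The 42 genes together took 0.693%, 0.676% and 0.675% of the counts in the TKT libraries and 0.694%, 0.705% and 0.707% in the controls. The summed share was thus lower in each TKT library by a small margin. These totals include TKT, which took 0.939%, 0.945% and 0.953% with TKT and 0.0494%, 0.0473% and 0.0511% in the controls. With TKT left out of the totals, the share of the first TKT library would not be under that of the first control library.

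**Figure D1:**
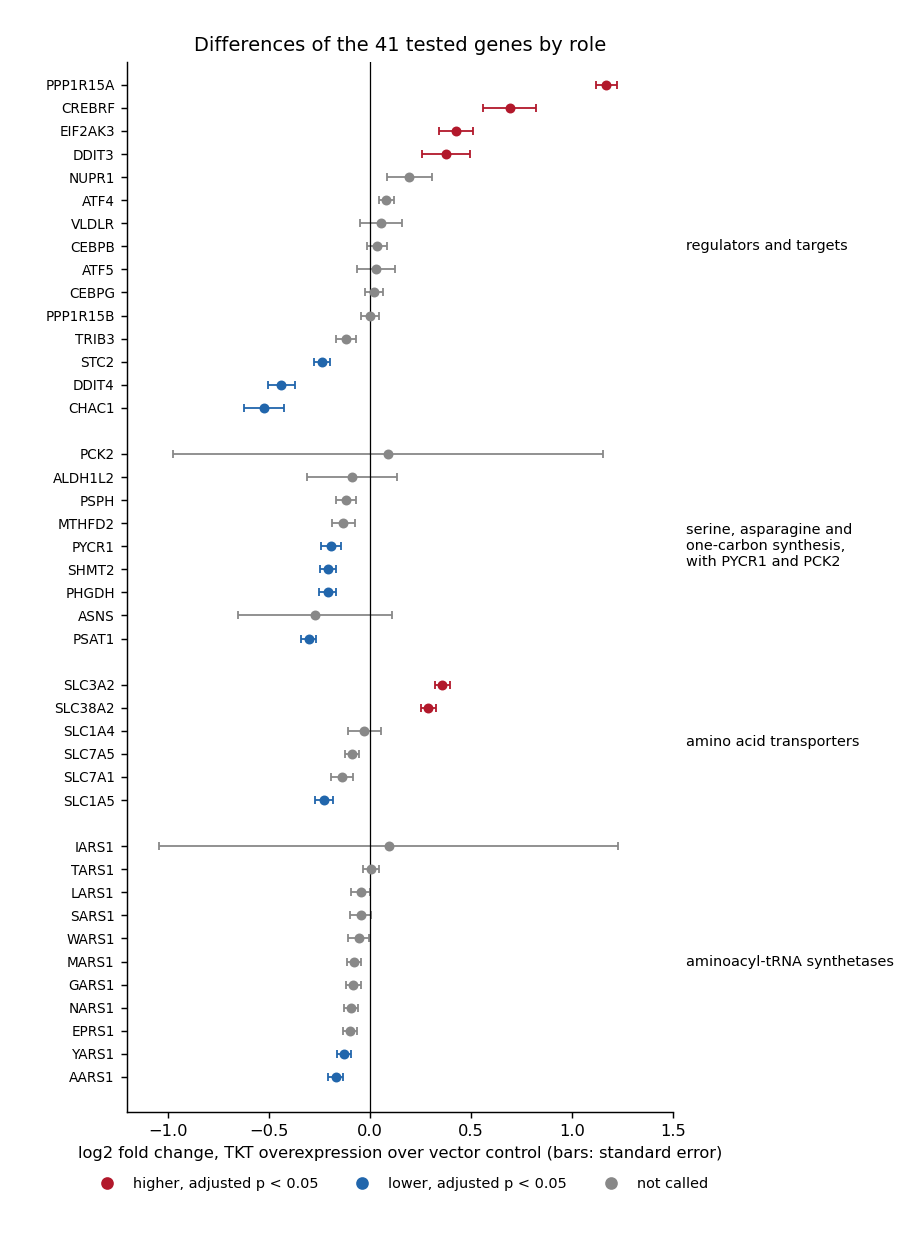
The log2 fold change of each of the 41 tested genes (x axis, TKT overexpression over vector control, 3 libraries each) is drawn by role, with points for the estimate of edgeR's quasi-likelihood fit, bars for its standard error, and colours for the call at an adjusted p under 0.05. PPP1R15A lies at 1.17 and the other 40 genes lie between −0.52 and 0.69, with the wide bars of PCK2 and IARS1 (standard errors 1.06 and 1.14) coming from uneven libraries.

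PPP1R15A lies on chromosome 19 of GRCh38.p14 from 48872421 to 48876058, on the plus strand (RefSeq). Its counts were 5016, 4311 and 4323 in the TKT libraries and 1781, 1862 and 2114 in the controls. As a level, this was 39.3, 40.1 and 38.7 FPKM with TKT and 16.4, 17.9 and 18.1 FPKM in the controls. All 3 TKT libraries lay above all 3 control libraries, and the gap between the groups was many times the spread within either. The group means were 39.4 ± 0.709 FPKM (SD, n = 3) and 17.5 ± 0.980 FPKM (SD, n = 3), a 2.25-fold difference of scaled counts with a log2 fold change of 1.17, a standard error of 0.05 and an adjusted p of 6.99e-13 in edgeR's quasi-likelihood test. Among the regulators, its deposited FPKM in control cells lay between those of DDIT4 (29.7 FPKM) and PPP1R15B (12.3 FPKM). In TKT cells it lay between those of CEBPB (42.8 FPKM) and STC2 (33.9 FPKM). These positions depend on the gene lengths behind FPKM, since PPP1R15B had more counts than PPP1R15A in the controls. No exon of another gene overlaps the exons of PPP1R15A in GENCODE 29, and no pseudogene of it is annotated in RefSeq.

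PPP1R15B, the constitutive subunit, was at 12.1, 12.1 and 12.8 FPKM with TKT and at 12.3, 12.7 and 11.9 FPKM in the controls. The groups overlapped, and their means of 12.4 ± 0.400 FPKM and 12.3 ± 0.387 FPKM (SD, n = 3 each) were closer together than the libraries within a group. The log2 fold change was 0.00 with a standard error of 0.05. The ratio of the levels of PPP1R15A and PPP1R15B, taken within each library, was 3.23, 3.32 and 3.02 with TKT and 1.33, 1.41 and 1.52 in the controls, a mean of 3.19 ± 0.152 (SD, n = 3) beside 1.42 ± 0.0958 (SD, n = 3). On the deposited FPKM the inducible subunit was the higher of the 2 in all 6 libraries, by a wider margin with TKT. In counts PPP1R15B was the higher in every control library (3643, 3589 and 3781 beside 1781, 1862 and 2114 for PPP1R15A). The order in the controls thus depends on the gene lengths behind FPKM. Without PPP1R15A, 5 of the remaining 40 tested genes rose and 10 fell (5.69% and 4.94% of all tested genes did). Nothing is read from these shares, since the genes were chosen with this contrast in view. The median log2 fold change of the 40 was −0.08, and the largest rise among them was 0.69.

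**Figure D2:**
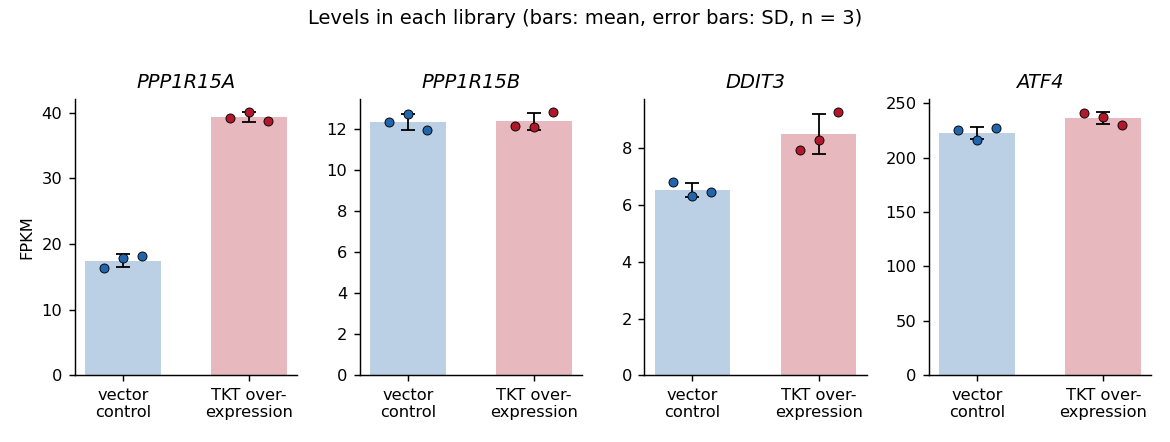
FPKM (y axis, from 0) of PPP1R15A, PPP1R15B, DDIT3 and ATF4 in vector control and TKT-overexpressing cells, with a point for each library, bars for the mean and error bars for the SD (n = 3). PPP1R15A goes from a mean of 17.5 to 39.4, PPP1R15B is at 12.3 and 12.4, DDIT3 at 6.52 and 8.50, and ATF4 at 223 and 236.

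Sequence ahead of the start sites is shown for PPP1R15A, which rose most, and PPP1R15B, which was not called, and later for genes of each role with a match. RefSeq windows of GRCh38.p14, from 250 bases before to 50 bases after an annotated start, were at hand for 35 of the 42 genes (53 windows, since some genes have several starts). They were searched on both strands for the C/EBP-ATF response element, spelled TGATGNAAN, and for the cAMP response element, spelled TGACGTCA. The capitals mark the match, and a match read on the opposite strand appears as its reverse complement. PPP1R15A holds a cAMP response element 58 to 51 bases before its start, in a stretch at chr19:48872352-48872381 on the plus strand that no GENCODE 29 exon covers. PPP1R15B holds a C/EBP-ATF response element 227 to 219 bases before its start, at chr1:204412011-204412067 on the minus strand, likewise outside annotated exons.
PPP1R15A: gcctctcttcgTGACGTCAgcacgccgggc
PPP1R15B: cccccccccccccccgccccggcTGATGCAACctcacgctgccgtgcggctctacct
Of the 53 windows of the set, that of PPP1R15A was the 1 window with a cAMP response element (1.89%), beside 649 of all 35116 windows (1.85%). The C/EBP-ATF response element was in 14 windows of 14 genes (26.4%), beside 1268 of all windows (3.61%), and PPP1R15A was not among the 14. A match is a description of the letters in a window and says nothing of binding.

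Of 3 further motifs searched on both strands, the E-box (CACGTG) was in 6 windows of the set (11.3%), in ATF4, CREBRF, SLC7A5, SLC1A5 and IARS1, beside 7.26% of all windows. The AP-1 site (TGANTCA) was in 4 windows (7.55%), in ATF5, DDIT3 and SLC3A2, beside 7.71% of all windows. The ER stress element, read as CCAAT and CCACG 9 bases apart, was in none of the 53 windows and in 0.0769% of all windows. None of the 5 motifs is contained in another, and the window of PPP1R15A held no other of the 5.

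Of the 15 regulators and targets that were tested, 4 rose and 3 fell (5.69% and 4.94% of all tested genes did), with a median log2 fold change of 0.04 and of 0.03 without PPP1R15A, and the groups did not overlap in 8 of the 15 (28.0% of all tested genes). The rises were in PPP1R15A, CREBRF, EIF2AK3 and DDIT3, and the falls in CHAC1, DDIT4 and STC2. The level of all 16 listed regulators summed to 484 ± 8.46 FPKM with TKT and 462 ± 7.85 FPKM in the controls (SD, n = 3 each). PPP1R15A alone had means of 39.4 and 17.5 FPKM, a gap about as wide as that between the sums. In control cells their levels ran from 0 FPKM for SESN2 to 223 FPKM for ATF4, with a median of 11.5 FPKM.

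CREBRF, a regulator that promotes degradation of the unfolded protein response factor CREB3, was at 0.823, 0.811 and 0.920 FPKM with TKT and at 0.503, 0.608 and 0.466 FPKM in the controls. The TKT libraries were the 3 highest, although the level was low in both groups, with between 195 and 378 counts a library. Its log2 fold change of 0.69 (SE 0.13, adjusted p = 0.00131, edgeR's quasi-likelihood test) was the second largest of the set after that of PPP1R15A. EIF2AK3 encodes PERK, the kinase that phosphorylates eIF2 when unfolded protein builds up in the endoplasmic reticulum. It was at 1.67, 1.72 and 1.92 FPKM with TKT and at 1.27, 1.52 and 1.15 FPKM in the controls, again with no overlap between the groups. PERK transcripts differed by 0.43 on the log2 scale (SE 0.08, adjusted p = 0.00255, edgeR's quasi-likelihood test), and other annotated genes overlap 15.1% of its exonic bases. Limma on log2(FPKM + 1) and log2(FPKM + 0.1) gave EIF2AK3 log2 differences of 0.26 and 0.41, with adjusted p-values of 0.0874 and 0.0892. CREBRF had a log2 difference of 0.28 on the former scale, where the pseudocount exceeds its level.

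DDIT3 encodes CHOP, a transcription factor downstream of ATF4. It was at 7.93, 8.29 and 9.27 FPKM with TKT and at 6.80, 6.32 and 6.45 FPKM in the controls. The TKT libraries were all above the control libraries, but the nearest values of the groups lay close together. On the log2 scale DDIT3 rose by 0.38, with an SE of 0.12 and an adjusted p of 0.0417 in edgeR's quasi-likelihood test. This call was lost when any 1 of the 6 libraries was left out, with adjusted p between 0.0682 and 0.171 in the same test, while the log2 fold change stayed between 0.32 and 0.42. Exons of MARS1 and 2 other genes overlap 39.6% of the exonic bases of DDIT3.

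CHAC1, a glutathione-degrading enzyme and target of ATF4, went the other way. It was at 5.87, 5.80 and 5.61 FPKM with TKT and at 7.85, 8.20 and 8.71 FPKM in the controls. The groups were well apart, and the log2 fold change of −0.52 (SE 0.10, adjusted p = 0.00114, edgeR's quasi-likelihood test) was the largest fall of the set. DDIT4 encodes REDD1, a stress-induced inhibitor of mTORC1. It was at 22.5, 22.7 and 20.8 FPKM with TKT and at 31.4, 26.8 and 30.8 FPKM in the controls, so that the second control library came nearest to the TKT libraries. Its log2 fold change was −0.44 (SE 0.07, adjusted p = 1.32e-04, edgeR's quasi-likelihood test). The antisense gene DDIT4-AS1 overlaps 41.2% of its exonic bases, and since the strand setting of the counting is not given in the sources used here, reads of the pair cannot be told apart. STC2, a secreted glycoprotein induced by the response, was at 34.5, 34.3 and 32.9 FPKM with TKT and at 40.1, 40.1 and 39.3 FPKM in the controls. Both groups were tight, at a log2 ratio of −0.24 (SE 0.04, adjusted p = 4.29e-04, edgeR's quasi-likelihood test).

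CHAC1 holds a C/EBP-ATF response element 210 to 202 bases before its RefSeq start, at chr15:40953251-40953279 on the plus strand within an exon of CHAC1 in GENCODE 29. CEBPG, which encodes a C/EBP partner of ATF4, holds the same 9 letters 42 to 34 bases before 1 of its starts, at chr19:33374046-33374104 on the plus strand outside annotated exons. The pair is shown because both carry the element while CHAC1 fell and CEBPG was not called.
CHAC1: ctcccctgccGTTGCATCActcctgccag
CEBPG: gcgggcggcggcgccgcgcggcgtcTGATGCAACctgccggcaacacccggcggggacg
The difference of CEBPG was 0.02 on the log2 scale with an SE of 0.05.

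ATF4, the transcription factor at the centre of the response, had the highest deposited FPKM of the 42 genes. It was at 241, 238 and 229.9 FPKM with TKT and at 225, 216 and 227 FPKM in the controls. On the FPKM scale the lowest TKT library lay just above the highest control, while on scaled counts the groups overlapped. Its log2 fold change was 0.08 (SE 0.04) and its adjusted p 0.188 in edgeR's quasi-likelihood test, so no difference was called. ATF4 is regulated mainly at translation, and protein was not measured in these libraries. The other regulators without a call were NUPR1, TRIB3, VLDLR, CEBPB, CEBPG, ATF5 and PPP1R15B, with log2 fold changes between −0.12 (TRIB3) and 0.19 (NUPR1). TRIB3, a pseudokinase that restrains ATF4 and CHOP, had a lower level in each TKT library, at an adjusted p of 0.139 in edgeR's quasi-likelihood test that became 0.0485 when the second control library was left out (0.0485 to 0.409 over all 16 alternative fits). The called targets of the response thus went in both directions, with PPP1R15A and DDIT3 higher and CHAC1, DDIT4 and STC2 lower.

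**Figure D3:**
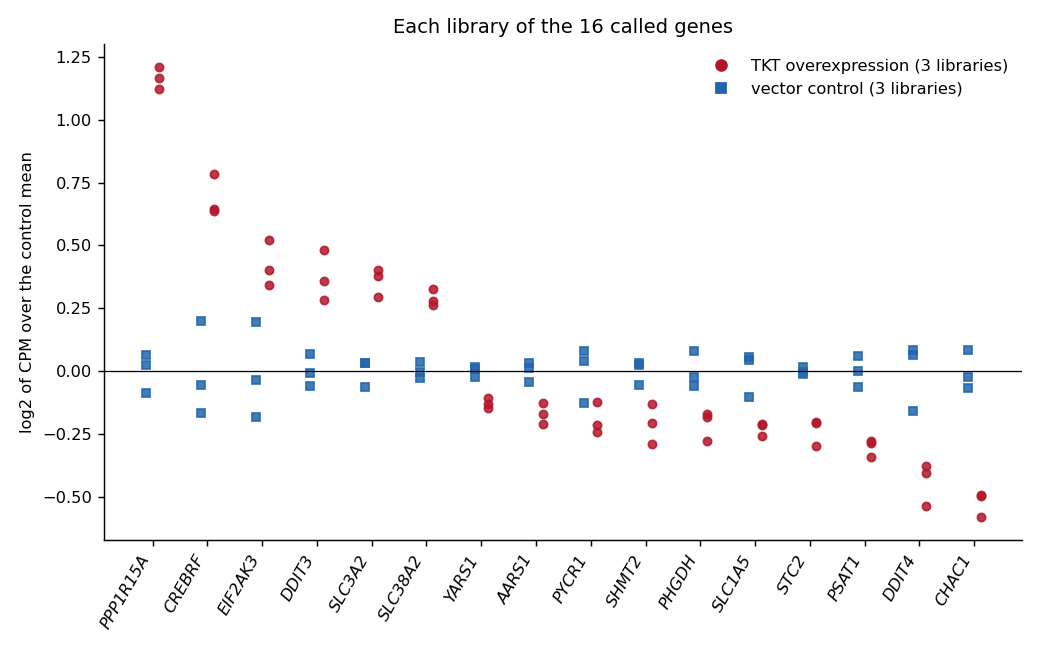
Each of the 16 called genes (x axis) is shown by library as the log2 of its CPM (counts over the scaled library size) relative to the control mean (y axis), with circles for the 3 TKT libraries and squares for the 3 control libraries. The TKT libraries of PPP1R15A lie between 1.12 and 1.21, and PYCR1 is the 1 gene of the 16 whose groups overlap.

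Of the 7 genes of serine, asparagine and one-carbon synthesis, 3 fell and none rose at an adjusted p under 0.05 in edgeR's quasi-likelihood test, with a median log2 fold change of −0.21 and all 7 below 0. Together with PYCR1 and PCK2, 4 of 9 synthesis genes fell (4.94% of all tested genes). The median log2 fold change of the 9 was −0.19, and 8 of the 9 were below 0. The exception was PCK2, a gene with uneven counts, and without it the median was −0.20. The summed level of the 9 was 379.9 ± 7.81 FPKM with TKT and 444 ± 12.8 FPKM in the controls (SD, n = 3 each), with 383, 386 and 371 FPKM in the TKT libraries and 447, 429.7 and 455 FPKM in the controls. Each TKT library was thus below each control library in the summed level. PSAT1 made up the largest part of that sum.

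PSAT1, the aminotransferase of the second step of serine synthesis, was at 147, 147 and 144 FPKM with TKT and at 179, 174 and 186 FPKM in the controls. The groups were far apart relative to their spread, with means of 146 ± 1.58 and 179.7 ± 6.22 FPKM (SD, n = 3 each). Its log2 fold change was −0.30 (SE 0.04, adjusted p = 1.10e-05, edgeR's quasi-likelihood test). PHGDH, the dehydrogenase of the first step, was at 33.1, 33.1 and 31.5 FPKM with TKT and at 35.9, 37.3 and 39.5 FPKM in the controls. It too was lower in every TKT library, with a log2 fold change of −0.21 (SE 0.04, adjusted p = 0.00186, edgeR's quasi-likelihood test). PSPH, the phosphatase of the last step, had a log2 fold change of −0.12 (SE 0.05) and an adjusted p of 0.124 in edgeR's quasi-likelihood test, which was 0.0358 without the second TKT library (0.0358 to 0.370 over all 16 alternative fits). The counts of PSPH are uncertain, because an annotated pseudogene copy took 4770 counts over the 6 libraries beside 25246 for the gene, or 18.9%.

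SHMT2, the mitochondrial enzyme that turns serine into glycine and a one-carbon unit, was at 74.9, 78.4 and 71.9 FPKM with TKT and at 87.6, 84.2 and 87.9 FPKM in the controls. All TKT libraries were below all controls, with a log2 fold change of −0.21 (SE 0.04, adjusted p = 0.00175, edgeR's quasi-likelihood test). MTHFD2 and ALDH1L2, the enzymes that carry the one-carbon unit further in mitochondria, were not called, with log2 fold changes of −0.13 (SE 0.05) and −0.09 (SE 0.22). ALDH1L2 had between 72 and 120 counts a library, so a difference of the size seen in SHMT2 could not be resolved for it. PYCR1, which makes proline, was at 69.2, 73.1 and 69.1 FPKM with TKT and at 82.1, 74.2 and 84.5 FPKM in the controls. The second library of each group came close to the other group, and on scaled counts they overlapped. PYCR1 fell by 0.19 on the log2 scale (SE 0.05, adjusted p = 0.0186, edgeR's quasi-likelihood test). That call was lost without the first TKT library (adjusted p = 0.0789 in the same edgeR test), without the third (0.0886), without the first control library (0.0884) and without the third (0.0744), as well as with limma on either FPKM scale (0.0733 and 0.0696), and other genes overlap 29.7% of its exonic bases.

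ASNS, the synthetase that makes asparagine and a target of ATF4, had 24, 27 and 28 counts in the TKT libraries and 23, 34 and 34 in the controls. At 0.161 FPKM with TKT and 0.194 FPKM in the controls it was the least abundant of the 41 tested genes, and its log2 fold change of −0.27 had a standard error of 0.38, so a difference of the size seen in PSAT1 was not detectable at this depth. Annotated pseudogene copies took 65 counts beside 170 for the gene itself, or 38.2%, and another gene overlaps 44.6% of its exonic bases. The multi-mapping setting of the counting is not given in the sources used here, so the level of ASNS is uncertain. Its C/EBP-ATF response element, 68 to 60 bases before 1 start, lies at chr7:97872458-97872486 on the minus strand within an exon of ASNS in GENCODE 29, and is shown because ASNS is a classic ATF4 target.
ASNS: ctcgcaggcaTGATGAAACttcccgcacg
PCK2, the mitochondrial enzyme that makes phosphoenolpyruvate, had 1447, 150 and 525 counts with TKT and 937, 684 and 147 in the controls. The counts of the groups overlapped over most of their range, with an 8.03-fold range of scaled counts within a group. The log2 fold change of PCK2 was 0.09 with a standard error of 1.06, so nothing can be said of its direction.

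**Figure D4:**
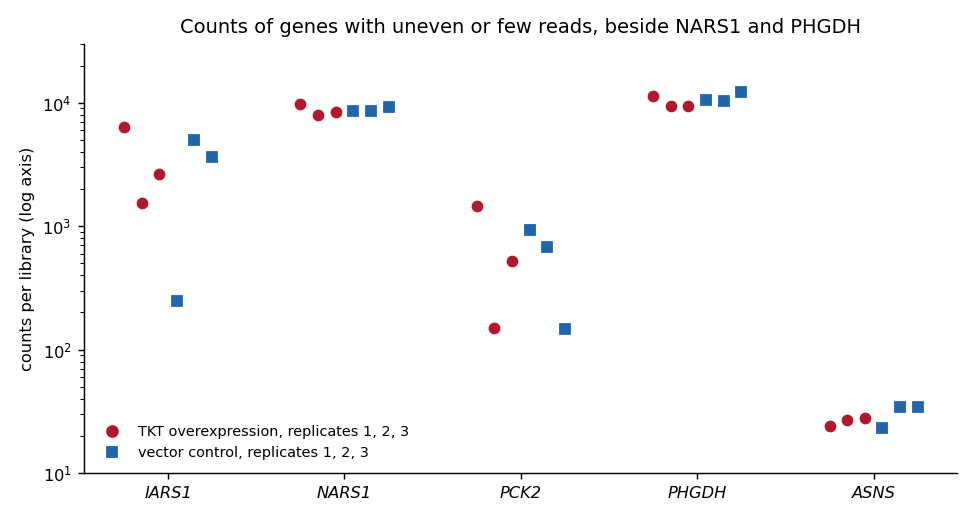
Counts per library (y axis, log scale) of IARS1, NARS1, PCK2, PHGDH and ASNS, with circles for TKT replicates 1, 2 and 3 and squares for control replicates 1, 2 and 3, in that order. IARS1 runs from 246 to 6312 counts and PCK2 from 147 to 1447 without regard to group, whereas PHGDH runs from 9405 to 12299 and ASNS from 23 to 34.

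Of the 6 amino acid transporters, 2 rose and 1 fell (5.69% and 4.94% of all tested genes), the median log2 fold change was −0.06, and the groups did not overlap in 5 (28.0% of all tested genes). Their summed level was 262 ± 1.65 FPKM with TKT and 253 ± 2.77 FPKM in the controls (SD, n = 3 each). SLC3A2, the heavy chain that carries several amino acid exchangers to the cell surface, was at 68.7, 69.1 and 65.7 FPKM with TKT and at 53.7, 51.0 and 53.7 FPKM in the controls. The TKT libraries were all higher by a margin well beyond the spread. It rose by 0.36 on the log2 scale (SE 0.04, adjusted p = 1.48e-06, edgeR's quasi-likelihood test). SLC7A5, the light chain LAT1 that pairs with SLC3A2 to import large neutral amino acids, was at 78.2, 80.6 and 77.6 FPKM with TKT and at 83.8, 84.5 and 82.6 FPKM in the controls. Here the TKT libraries were the 3 lowest, but the log2 fold change was −0.09 (SE 0.04) with an adjusted p of 0.120 in edgeR's quasi-likelihood test, so it was not called. On the deposited FPKM the heavy chain with TKT (67.8 ± 1.83 FPKM, SD, n = 3) was under the light chain (78.8 ± 1.63 FPKM, SD, n = 3). In counts SLC3A2 was higher (16346, 13819 and 13665 beside 13863, 12024 and 12017), so the order depends on the gene lengths behind FPKM.

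SLC38A2, the sodium-coupled transporter SNAT2 that is induced by amino acid shortage, was at 45.6, 45.7 and 48.4 FPKM with TKT and at 37.0, 39.3 and 37.6 FPKM in the controls. The groups were apart, with a log2 fold change of 0.29 (SE 0.04, adjusted p = 1.36e-05, edgeR's quasi-likelihood test). SLC1A5, the neutral amino acid exchanger ASCT2 that takes up glutamine, was at 57.2, 56.7 and 56.4 FPKM with TKT and at 68.0, 62.3 and 68.4 FPKM in the controls. It was lower in every TKT library, and the TKT libraries hardly differed among themselves. It fell by 0.23 on the log2 scale (SE 0.04, adjusted p = 0.00123, edgeR's quasi-likelihood test), and other genes overlap 23.8% of its exonic bases. SLC7A1, a transporter of arginine and lysine, and SLC1A4, a transporter of alanine, serine and cysteine, were not called, with log2 fold changes of −0.14 (SE 0.05) and −0.03 (SE 0.08). A C/EBP-ATF response element was in a window of 4 of the 6 transporters, namely SLC3A2, SLC7A1, SLC1A5 and SLC1A4, of which 1 rose, 1 fell and 2 were not called. That of SLC1A5, the gene that fell, is 97 to 89 bases before 1 of its starts, at chr19:46784893-46784921 on the minus strand within an exon of SLC1A5 in GENCODE 29.
SLC1A5: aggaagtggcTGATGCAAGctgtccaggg

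Of the 11 aminoacyl-tRNA synthetases, which load amino acids onto their tRNAs, 2 fell and none rose at an adjusted p under 0.05 in edgeR's quasi-likelihood test (4.94% and 5.69% of all tested genes). Their median log2 fold change was −0.08, with 9 of the 11 below 0, and the groups did not overlap in 6 (28.0% of all tested genes). Without IARS1, whose counts were uneven, the other 10 genes had log2 fold changes between −0.17 (AARS1) and 0.01 (TARS1). Differences among the synthetases were thus small next to that of PPP1R15A. Their summed level was 349 ± 4.73 FPKM with TKT and 369 ± 4.94 FPKM in the controls, or 344 ± 2.63 and 365 ± 1.99 FPKM without IARS1 (SD, n = 3 each).

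AARS1, which loads alanine, was at 51.7, 49.8 and 49.7 FPKM with TKT and at 57.5, 55.4 and 56.7 FPKM in the controls. All TKT libraries were below all controls, with a log2 fold change of −0.17 (SE 0.04, adjusted p = 0.00336, edgeR's quasi-likelihood test). YARS1, which loads tyrosine, was at 24.4, 24.6 and 24.6 FPKM with TKT and at 26.8, 26.6 and 26.9 FPKM in the controls. Its libraries were tight within each group, and the log2 fold change was −0.13 (SE 0.04, adjusted p = 0.0244, edgeR's quasi-likelihood test). The call of YARS1 was lost without the first TKT library (adjusted p = 0.106 in the same edgeR test), without the third (0.0761), without the first control library (0.0946) and without the third (0.0761), and also with limma on either FPKM scale (0.0661 and 0.0660). NARS1, which loads asparagine, had the highest deposited FPKM of the 11 synthetases of the set. AARS1 had more counts, with 15963 to 19734 a library beside 7939 to 9875 for NARS1. NARS1 was at 64.9, 62.0 and 63.5 FPKM with TKT and at 66.0, 69.7 and 66.9 FPKM in the controls. The TKT libraries were again the 3 lowest, but the log2 fold change of −0.09 (SE 0.04, adjusted p = 0.112, edgeR's quasi-likelihood test) was not called.

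EPRS1, which loads glutamate and proline, came nearest to the threshold among the uncalled synthetases, with a log2 fold change of −0.10 (SE 0.04) and an adjusted p of 0.0782 in edgeR's quasi-likelihood test. DESeq2 called it (adjusted p = 0.0423, beside 0.0423 to 0.228 over all 16 alternative fits). The synthetases GARS1, MARS1, WARS1, SARS1, LARS1 and TARS1, for glycine, methionine, tryptophan, serine, leucine and threonine, had log2 fold changes between −0.08 and 0.01 and no call. IARS1, for isoleucine, had 6312, 1549 and 2629 counts with TKT and 246, 5029 and 3671 in the controls. The first control library was far below all others, and the log2 fold change of 0.09 had a standard error of 1.14. A C/EBP-ATF response element was in a window of 6 of the synthetases, AARS1, GARS1, MARS1, NARS1, TARS1 and IARS1. That of AARS1, the most firmly called synthetase of the set, is 188 to 180 bases before its start. It lies at chr16:70289676-70289704 on the minus strand, where GENCODE 29 has an exon of the neighbouring gene DDX19B.
AARS1: ttttctcgcaGTTGCATCAgccaagttag

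**Figure D5:**
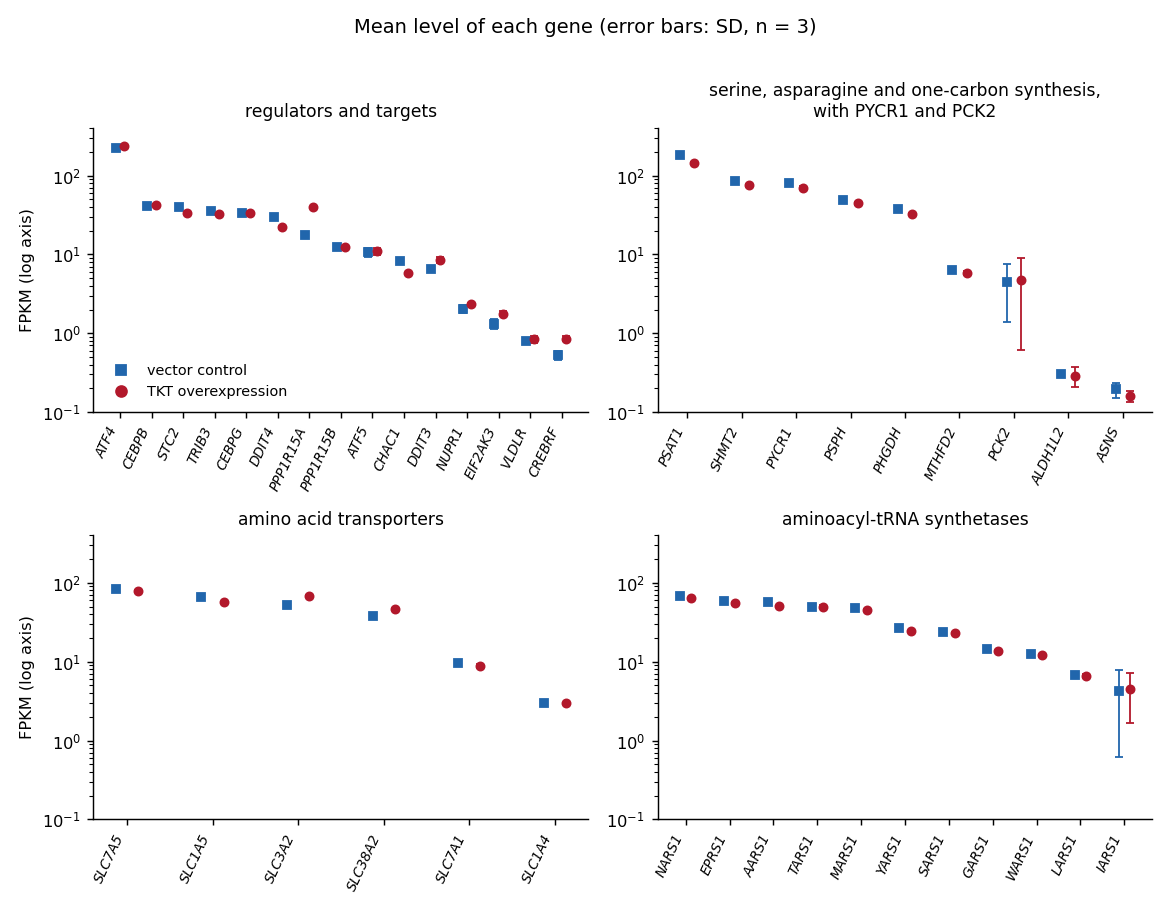
Mean FPKM (y axis, log scale) of each gene by role in vector control (squares) and TKT-overexpressing cells (circles), with error bars for the SD (n = 3) and SESN2 left out for its level near 0. Control levels run from 0.194 for ASNS to 223 for ATF4, and PPP1R15A shows the widest gap between the groups among genes with even libraries.

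Levels within a group were even for most of the set. In 37 of the 41 tested genes the highest library of a group was under 1.3 times its lowest in both groups, and the 4 others were ASNS (1.53), ALDH1L2 (1.59), PCK2 (8.03) and IARS1 (21.1). Over all tested genes with a mean of at least 5 CPM, 76 of 9906 (0.767%) varied at least 3-fold within a group, and 2 of the 39 genes of the set above that mean did. In control cells the median level was 11.5 FPKM for the regulators, 37.6 FPKM for the synthesis genes, 45.4 FPKM for the transporters and 26.8 FPKM for the synthetases. With TKT these medians were 11.7, 32.6, 51.7 and 24.5 FPKM. The medians of log2 fold change by role kept their sign under all 16 alternative fits, from 0.01 to 0.05 for the regulators, from −0.23 to −0.11 for the synthesis genes, from −0.07 to −0.04 for the transporters and from −0.10 to −0.07 for the synthetases.

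Other genes of the same pathways, listed by function, were read in the same way, beside the 5.69% of all tested genes that rose and the 4.94% that fell. These lists too were written with earlier results of these data known, so nothing is read from their shares. Of 19 further genes of eIF2 signaling, among them the kinases EIF2AK1, EIF2AK2 and EIF2AK4 and the subunits of eIF2 and eIF2B, 1 rose and 2 fell, with a median log2 fold change of −0.04 beside 0.00 over all tested genes. The rise was in EIF2A, an alternative initiation factor distinct from eIF2, at 0.25 (SE 0.05, adjusted p = 0.00168, edgeR's quasi-likelihood test). The falls were in PPP1CA and PPP1CC, catalytic subunits of protein phosphatase 1, the enzyme that PPP1R15A and PPP1R15B bring to eIF2. PPP1CA was at a log2 fold change of −0.14 (SE 0.04, adjusted p = 0.0369, edgeR's quasi-likelihood test) and PPP1CC at −0.13 (SE 0.04, adjusted p = 0.0272, same test). Both calls were lost without the first or the third TKT library and without the first or the third control library, with adjusted p between 0.104 and 0.155 for PPP1CA and between 0.0754 and 0.176 for PPP1CC in the same edgeR test. Under upper-quartile scaling these were 0.0610 and 0.0517.

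Of 11 tested genes for other cytosolic synthetases and their scaffold, 1 fell and the median log2 fold change was −0.01. The fall was in QARS1, for glutamine, at −0.24 (SE 0.04, adjusted p = 2.22e-04, edgeR's quasi-likelihood test). Of 15 tested mitochondrial synthetases, TARS2 alone fell, at −0.25 (SE 0.06, adjusted p = 0.00898, same edgeR test), and the median was −0.02. TARS2 was not called without the first TKT library (adjusted p = 0.0519, edgeR) or the first control library (0.0821). Of 19 tested genes for other amino acid enzymes, 4 fell and none rose in this test (4.94% and 5.69% of all tested genes), with a median of −0.08. The falls were in ASL of arginine synthesis (−0.28), the transaminases GPT2 (−0.21) and GOT1 (−0.17), and ALDH4A1 of proline breakdown (−0.19). In edgeR's test GOT1 was lost without the first or the third TKT library or the third control library (adjusted p of 0.0762, 0.0642 and 0.103), and ALDH4A1 without the first or the third library of either group (0.0931 to 0.191) or under upper-quartile scaling (0.0565). Of 15 tested genes for other amino acid transporters, 2 rose and none fell, with a median of 0.00. These were SLC7A8, the light chain LAT2 that also pairs with SLC3A2, at 0.68 (SE 0.21, adjusted p = 0.0396, edgeR's quasi-likelihood test), and the glutamine transporter SLC38A3, at 0.31 (SE 0.07, adjusted p = 0.00324, same test). SLC7A8, with between 64 and 144 counts a library, was lost when any 1 library was left out (adjusted p of 0.0552 to 0.175, edgeR).

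Of 19 tested genes of the unfolded protein response of the endoplasmic reticulum, 1 rose and 1 fell, with a median log2 fold change of −0.01. The rise was in the co-chaperone DNAJB9 at 0.20 (SE 0.06, adjusted p = 0.0390, edgeR's quasi-likelihood test), and the fall in CRELD2, a secreted protein induced by such stress, at −0.20 (SE 0.06, adjusted p = 0.0283, same test). DNAJB9 was lost without the first or the second TKT library or the first or the third control library (adjusted p of 0.0592 to 0.204, edgeR), and CRELD2 without any 1 library except the second control (0.0623 to 0.137). HSPA5, the main chaperone of the compartment, was at 185 FPKM with TKT and 184 FPKM in the controls, with a log2 fold change of 0.01 (SE 0.03). ATF3, a transcription factor that is a target of ATF4 and also an immediate-early gene, had 980, 796 and 839 counts with TKT and 254, 207 and 324 in the controls. It rose by 1.66 on the log2 scale (SE 0.11, adjusted p = 6.33e-10, edgeR's quasi-likelihood test), from 2.03 to 6.47 FPKM, a larger change than in any of the 41 genes.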

How the data were processed

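Total RNA was sequenced as paired-end reads from 3 TKT-overexpressing and 3 vector control libraries, grouped by the genotype labels. The authors trimmed the reads with fastp 0.22.0, aligned them with HISAT2 2.1.0 to hg38 (submitters' processing notes) and deposited counts per gene from featureCounts without normalization. The authors also deposited FPKM values made from the same libraries. The annotation, strand and multi-mapping options are not given in the sources used here. No per-sample column was left unused (0), and no value of the authors' own comparisons was used.

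The whole count table was fitted with edgeR 4.0.16 under R 4.3.3: filterByExpr with a minimum count of 10, TMM scaling, robust dispersions and the quasi-likelihood test without pairing, with Benjamini-Hochberg adjustment over 14162 genes and a call at an adjusted p under 0.05. Standard errors came from the log2 fold change and its F statistic. Levels are the deposited FPKM, as mean and SD. Library totals lay between 30148788 and 37096156 counts, and precision rests on the spread between 3 libraries. Chi-square per degree of freedom between libraries was 6.90 to 9.41 within a group and 28.8 to 35.6 between groups, so no 2 libraries looked like copies. Start site windows came from RefSeq (GRCh38.p14) and exons from GENCODE 29. Figures were drawn with matplotlib 3.10.9. The steps were tested on simulated counts.

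The genes and lists were chosen with earlier results of these data known. Values per library are given for TKT, PPP1R15A, PPP1R15B, the called genes of each role (at most 4, by p) and the gene of each role with the highest FPKM. Of the other lists, called genes are named (at most 4 a list) with ATF3. CREBRF, EIF2AK3, DDIT3, ASNS, PCK2, IARS1 and the uncalled genes named in the text were added after their values were seen. The alternatives were RLE, upper-quartile and total scaling, DESeq2 1.42.0, 2 other filters, the replicate number as a block, limma 3.58.1 on log2(FPKM + 1) and log2(FPKM + 0.1), TKT left out before scaling, each library left out, and a minimum absolute log2 fold change of 1. Genes without a RefSeq window are named only: NUPR1, PSPH, SHMT2, ALDH1L2, PYCR1, LARS1 and YARS1.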

Additional observations from a re-analysis of the deposited data

How the results depend on the processing

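For the whole table, edgeR called 1505 genes, and other scalings and filters, DESeq2 and leaving out TKT called between 1469 and 1741, including between 1383 and 1502 of the 1505, with 892 higher and 577 lower under upper-quartile scaling beside 806 and 699. Limma called 827 genes on log2(FPKM + 1) and 826 on log2(FPKM + 0.1), and a minimum absolute log2 fold change of 1 left 103 genes and 1 gene of the set. With the replicate number as a replicate block, 697 genes and 13 of the 41 were called, and since same-numbered libraries did not deviate together (correlations of −0.01, −0.09 and 0.01), the numbers do not pair the libraries. With each library left out in turn, between 791 (without the first TKT library) and 1586 genes were called, 881 without the first control library, and between 13 and 16 genes of the set. The cause was not tested, beyond the fewer libraries of these fits. Of the 16 called genes of the set, 12 were called in all 16 alternative fits, and DDIT3, PYCR1, YARS1 and EIF2AK3 were lost in at least 1. Limma on either FPKM scale ended the calls of PYCR1, YARS1 and EIF2AK3, and outside the set those of PPP1CA, PPP1CC, GOT1, ALDH4A1, SLC7A8, CRELD2 and DNAJB9, and the replicate block ended all of these but EIF2AK3, and those of DDIT3, GPT2 and HNF4A. DDIT3 was at an adjusted p of 0.0522 without a filter. PPP1R15A had log2 fold changes between 1.12 and 1.20. Of 990 values of named genes under the alternatives, 904 kept their side of the threshold (17 changed sign with no call in either fit), 83 lost their call and 3 gained one, and no called value changed sign. Counts under about 100 a library, as in ASNS and ALDH1L2, limit what could be seen.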

Other observations

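Several of the genes around PCK2 on chromosome 14 also had uneven counts, for which the cause was not tested. DCAF11, its neighbour, had 25, 272 and 94 counts in the TKT libraries and 218, 144 and 534 in the controls. EMC9 had 173, 2 and 18 counts with TKT and 5, 63 and 3 in the controls, and GMPR2 had 963, 156 and 551 beside 50, 571 and 1343. PSME1 and PSME2, on either side of EMC9, varied less, by up to 1.63-fold and 1.40-fold within a group in scaled counts, with 2849, 3858 and 3313 counts of PSME1 with TKT and 3670, 2747 and 3815 in the controls. Next to IARS1, NOL8 had 656, 524 and 933 counts with TKT and 572, 597 and 126 in the controls, so the library that was low differed from that of IARS1, while SPTLC1 on the other side of IARS1 was even (at most 1.08-fold within a group, in scaled counts).

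Among synthetases outside the set, VARS1, for valine, was counted almost nowhere, with 5, 0 and 0 counts in the TKT libraries and 0, 0 and 6 in the controls. CARS1, for cysteine, had 16, 237 and 429 counts with TKT and 139, 458 and 14 in the controls. Both enzymes are needed for protein synthesis in all cells, and the cause of the low values was not tested.

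ATF3 was read with a list of immediate-early genes. Of the 17 tested, 10 rose and none fell at an adjusted p under 0.05 in edgeR's quasi-likelihood test, where 5.69% of all tested genes rose and 4.94% fell. The median log2 fold change of the 17 was 0.43, beside 0.00 over all tested genes. This list was written with earlier results of these data known, so nothing is read from its shares or its median. DUSP1, a phosphatase of MAP kinases, was at 43.6 FPKM with TKT and 18.1 FPKM in the controls, near the deposited FPKM of PPP1R15A. JUN rose by 0.77 and KLF10 by 0.72 on the log2 scale in the same test.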
